A study of Mus musculus with 8 samples.

Results

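Myeloid heme oxygenase-1 was studied here in cholestatic mouse liver, and the question taken up is whether the transcriptional response to bile duct ligation (BDL) differed between the 2 labelled genotypes. BDL blocks the flow of bile and leads to cholestasis, growth of bile ducts and scarring. All 8 of the 8 libraries of the series enter, because a difference of responses needs each of the 4 groups, and 14147 of 24982 genes had enough reads to be tested. The quantity reported for a gene is the log2 difference of responses: (BDL minus control) in the libraries labelled LysM-Cre:Hmoxflfl:Ribotag, minus (BDL minus control) in the libraries labelled LysM-Cre:Ribotag. A value of 1 means that the ratio of BDL to control was 2 times as large under the Hmoxflfl label, and a negative value means that it was smaller.

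All mice carried LysM-Cre and the RiboTag allele. RiboTag adds a hemagglutinin tag to the ribosomal protein RPL22 in cells with Cre, so that ribosomes and their RNA can be pulled out of whole tissue. LysM-Cre is driven from the Lyz2 locus, whose lysozyme is made by monocytes, macrophages and neutrophils, and the labels give the cell type as myeloid cells of the liver. One pair of groups had no other allele in its label and was sampled as controls and at 17 days after BDL, with 2 libraries each. The other pair also carried floxed Hmox1 and was sampled in the same way, again with 2 libraries each. The ages of the mice and the surgery of the controls are not given in the sources used here. Nor do the labels say that the 2 libraries of a group came from separate animals. The libraries of LysM-Cre:Ribotag after BDL differ in sex, as given below, and so came from different animals; in the other 3 groups the spread behind the p-values may be technical.

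Hmox1 encodes heme oxygenase-1 (HO-1), which opens the heme ring and releases biliverdin, carbon monoxide and iron. In macrophages of the liver it is induced by heme and by oxidative stress through the transcription factor NRF2, and the heme receptor BACH1 represses it. The series title joins HO-1 to LNX1, a ubiquitin ligase that marks the Notch inhibitor NUMB for degradation, and to the receptor NOTCH1. Notch signalling in the liver is known for its part in bile duct formation and in macrophage activation.

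The labels were checked first on the targeted gene and on the locus of the Cre. Hmox1 levels, in CPM (counts per M, scaled to an effective library size by TMM, trimmed means of M-values), were 6.22 and 7.46 in LysM-Cre:Ribotag controls and 26.1 and 24.0 after BDL. In the libraries labelled Hmoxflfl they were 22.5 and 29.9 in controls and 72.3 and 95.5 after BDL. In each condition both libraries labelled Hmoxflfl were above both LysM-Cre:Ribotag libraries, against the direction that the label of a deletion would give. Lyz2, which encodes lysozyme M, went from 8.04 to 27.3 CPM over the 4 LysM-Cre:Ribotag libraries and from 0.128 to 0.665 CPM over the 4 labelled Hmoxflfl, without overlap. The group labels name LysM-Cre without its copy number, and whether that number differed between the groups was not tested. Which exons the floxed allele removes is not given in the sources used here, and counts per gene cannot show a deletion of single exons. The groups are therefore called by their labels throughout, and every direction below is between libraries labelled in that way.

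Total counts were 9.81 to 40.9 M per library, of which the ribosomal RNA precursor RN45S took 10.3% to 66.8%, leaving 3.25 to 31.6 M counts for other genes. The lowest of these belonged to Hmoxflfl BDL replicate 2, which also had the highest RN45S share. LysM-Cre:Ribotag BDL replicate 1 carried the female transcript Xist at 667 CPM and the Y-linked Ddx3y at 0, while in the other 7 libraries Xist was at most 0.382 CPM. The hepatocyte list held 8.27% to 13.3% of counts other than RN45S and the Kupffer cell list 0.158% to 0.277%, so hepatocyte RNA was abundant in libraries labelled as myeloid. The hemoglobin genes Hba-a1 and Hbb-bs were at 0 in all 8 libraries, and the B cell marker Ms4a1 was at 0 in 2. Because these are bulk samples, fewer cells of a type and less RNA per cell cannot be told apart.

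Tmc5, which encodes a member of the transmembrane channel-like protein family, was the only gene whose difference of responses passed the test. Its response was lower under the Hmoxflfl label. By edgeR's quasi-likelihood F test with Benjamini-Hochberg adjustment over all genes, 1 of 14147 genes (0.00707%) had an adjusted p under 0.05 and none was higher. At an unadjusted p under 0.05 there were 1316 genes (9.3%), of which 428 (3.03%) were higher and 888 (6.28%) lower. With DESeq2 at the same unadjusted threshold there were 1177 genes, and with limma-voom 1165. The next smallest adjusted p after Tmc5 was 0.12.

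Size without a pass was common. An absolute log2 difference of at least 1 was estimated for 2080 genes (14.7%), 670 higher and 1410 lower. The median standard error was 0.43 and the median half-width of the 95% interval 0.95 on the log2 scale, so for many genes a difference of 2-fold lies within the error. The interval was narrower than 1 on each side for 7863 genes (55.6%). The median difference over all genes was -0.02, with quartiles at -0.44 and 0.34. Among the 888 lower genes at an unadjusted p under 0.05, the labelled genotypes were further apart after BDL for 645 and in controls for 243. Among the 428 higher genes the corresponding counts were 272 and 156.

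**Figure D1:**
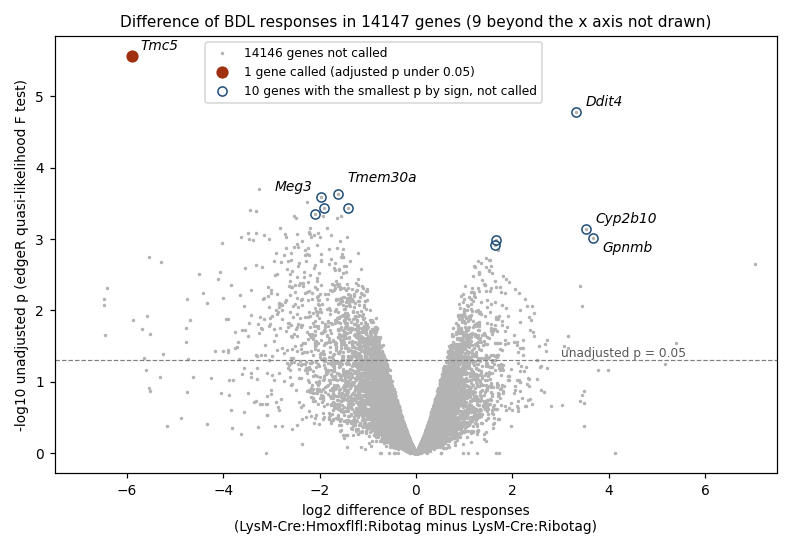
Each point is 1 of the 14147 genes tested, with the log2 difference of BDL responses (libraries labelled Hmoxflfl minus LysM-Cre:Ribotag) on the x axis and -log10 of the unadjusted p on the y axis; 9 genes lie beyond the x axis. Tmc5 at -5.91 is the only gene called, and the 10 genes ringed have the smallest p of each sign under the naming rule without passing.

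The libraries can also be read in pairs, without a model. A gene was counted as having responses that do not overlap when all 4 pairs of a BDL and a control library under one label lay above, or all below, all 4 pairs under the other. Of the genes tested, 1498 (10.6%) had responses under the Hmoxflfl label wholly above and 1955 (13.8%) wholly below, together 3453 (24.4%). These shares are the background for the counts given below for single gene groups.

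In Tmc5 (mm10 chromosome 7, 118597297 to 118675086, plus strand) the 2 LysM-Cre:Ribotag libraries after BDL stood above the other 6. Its levels were 0.0628 and 0.0965 CPM in LysM-Cre:Ribotag controls and 13.4 and 17.6 CPM after BDL. Under the Hmoxflfl label they were 0.385 and 0.402 CPM in controls and 0.928 and 1.99 CPM after BDL. The responses did not overlap, and all 4 controls were at 0.402 CPM or less. The log2 difference of responses was -5.91 ± 0.70 (SE; 95% interval -7.44 to -4.37), with an adjusted p of 0.0387 by edgeR's quasi-likelihood test. The LysM-Cre:Ribotag controls held only 5 reads of Tmc5 in all, under the minimum of 10 set for naming a gene, so it is named after its values were seen and the size of the difference depends on those few reads. In the deposited FPKM table the same order appeared, with 1.72 and 2.28 in LysM-Cre:Ribotag after BDL and at most 0.152 in the other 6 libraries. Of 22 alternative fits, 12 called Tmc5 and 10 did not, and its estimate was negative in each, between -6.47 and -1.43. Among the 10 were limma-voom, dispersion that was not robust, the stricter filter, the RN45S share as a covariate, and log2(FPKM + 1) with no filter. The others were the fits without Hmoxflfl BDL replicate 1 or without any 1 of the 4 controls. A fit without 1 library leaves a single library in that group.

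No other gene passed, and the 5 genes of each sign with the smallest p are given next as estimates that did not pass. The 5 positive ones were Ddit4, Cyp2b10, Gpnmb, Daam2 and Edf1. The 5 negative ones were Tmem30a, Meg3, Cyb561, Tgfbr1 and Kcnq1ot1. All 10 had responses that do not overlap, against 24.4% of all genes tested. The rule did not require this of them, but a choice by smallest p favors such genes. Their adjusted p-values ran from 0.12 for Ddit4 to 0.35 (edgeR).

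Ddit4 encodes REDD1, an inhibitor of the growth kinase mTORC1 that is induced by stress and glucocorticoids. Its levels were 23.7 and 44.7 CPM in LysM-Cre:Ribotag controls, 7.83 and 8.03 CPM in LysM-Cre:Ribotag after BDL, 4.15 and 6.22 CPM in controls labelled Hmoxflfl, and 10.1 and 14.8 CPM in BDL labelled Hmoxflfl. The LysM-Cre:Ribotag controls were the highest of the 8 libraries and the Hmoxflfl controls the lowest. The log2 difference of responses was 3.33 ± 0.48 (95% interval 2.29 to 4.37). Of the 22 alternatives 4 called it, and in all of them the estimate was positive, between 2.56 and 3.74.

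Cyp2b10, a cytochrome P450 of drug metabolism and the classic target of the nuclear receptor CAR, was also highest in LysM-Cre:Ribotag controls. It was at 10.4 and 12.2 CPM in LysM-Cre:Ribotag controls and between 0.585 and 2.88 CPM in the other 6 libraries. The difference was 3.54 ± 0.77 (95% interval 1.84 to 5.24), and 3 alternatives called it.

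Gpnmb encodes a transmembrane glycoprotein of lipid-associated and scar macrophages. It was at 0.188 and 0.74 CPM in LysM-Cre:Ribotag controls and 5.91 and 9.83 CPM after BDL, and under the Hmoxflfl label at 0.0855 and 0.254 CPM in controls and 34.7 and 49.9 CPM after BDL. The Hmoxflfl BDL libraries were the 2 highest, well clear of the rest. The difference was 3.67 ± 0.81 (95% interval 1.87 to 5.47), resting on 14 reads in the sparsest group.

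Daam2, a formin that acts in Wnt signalling, lay between 3.42 and 6.31 CPM in 6 libraries and at 13 and 12.8 CPM in BDL labelled Hmoxflfl, for a difference of 1.65 ± 0.38. Edf1, a transcriptional coactivator that also binds collided ribosomes, was at 34.0 to 73.3 CPM in 6 libraries and at 99.5 and 120.5 CPM in BDL labelled Hmoxflfl, for a difference of 1.65 ± 0.39. In both genes the 2 Hmoxflfl BDL libraries were the highest of the 8.

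Among the negative estimates, Tmem30a and Kcnq1ot1 had their lowest levels in BDL labelled Hmoxflfl. Tmem30a encodes the partner subunit of phospholipid flippases. It was at 60.3 and 47.6 CPM in LysM-Cre:Ribotag controls, 41.8 and 49.1 CPM after BDL, 85.4 and 76.8 CPM in controls labelled Hmoxflfl, and 21.7 and 23.0 CPM in BDL labelled Hmoxflfl. The Hmoxflfl libraries thus held both ends of the range, and the difference was -1.61 ± 0.31 (95% interval -2.29 to -0.94).

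Kcnq1ot1, an imprinted long noncoding RNA antisense to Kcnq1, was at 45.9 and 49.4 CPM in BDL labelled Hmoxflfl and between 99.8 and 260.3 CPM in the other 6 libraries, with a difference of -2.10 ± 0.43. The counting strand is not stated, so reads of Kcnq1 may be included. Tgfbr1, the type I receptor for TGF-beta, was at 20.3 and 20.4 CPM in LysM-Cre:Ribotag controls and 31.3 and 37.6 CPM after BDL, and at 30.6 and 32.1 CPM in controls labelled Hmoxflfl and 19.1 and 20.8 CPM after BDL. Its order after BDL was the opposite of that in controls, and the difference was -1.42 ± 0.29 (95% interval -2.04 to -0.79).

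For Meg3 and Cyb561 the labelled genotypes stood apart in controls. Meg3, another imprinted long noncoding RNA, was at 13.3 and 14.4 CPM in LysM-Cre:Ribotag controls against 105.3 and 91.3 CPM in controls labelled Hmoxflfl. After BDL its levels were 3.62 and 6.55 CPM against 9.36 and 8.64 CPM, and the difference of responses was -1.97 ± 0.38. Cyb561, a cytochrome b561 that moves electrons across vesicle membranes, was at 0.691 and 0.772 CPM against 4.27 and 3.96 CPM in controls, and at 9.62 and 9.01 CPM against 12.6 and 15.5 CPM after BDL. Its libraries labelled Hmoxflfl were the higher ones in both conditions, by less after BDL, and the difference was -1.91 ± 0.39. Tmem30a, Meg3, Tgfbr1 and Kcnq1ot1 were each called by 4 of the 22 alternatives and Cyb561 by 2.

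**Figure D2:**
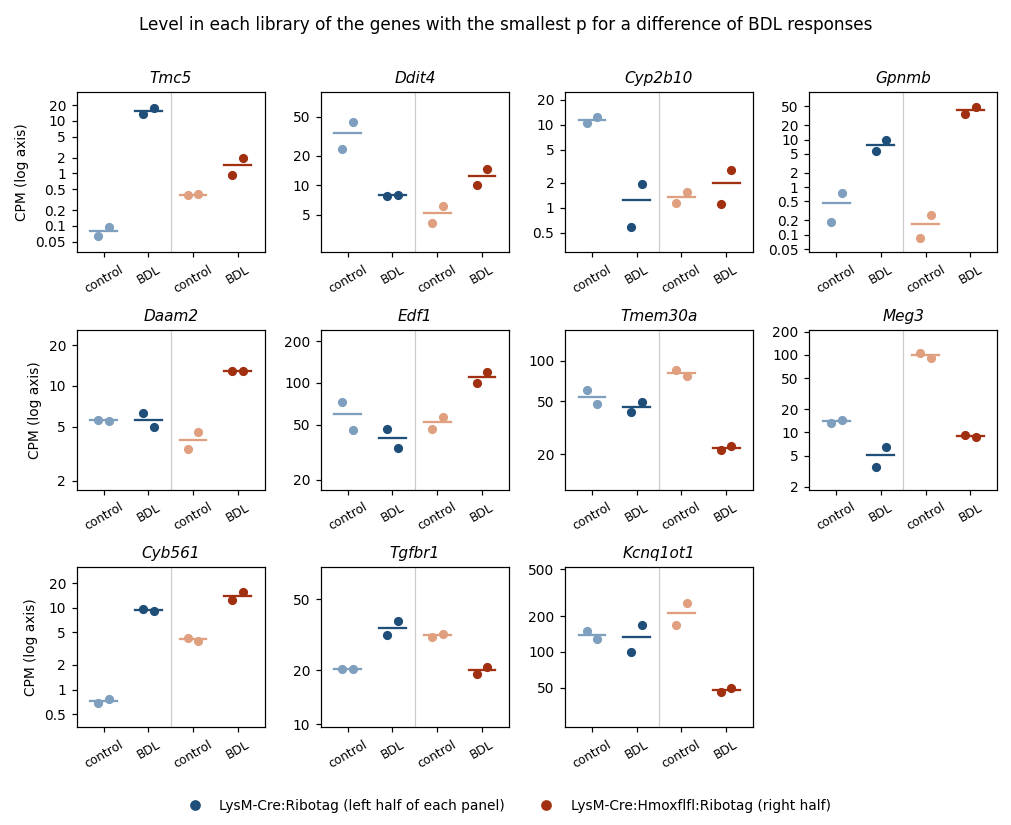
Level of 11 genes in each library in CPM on a log axis, with LysM-Cre:Ribotag libraries in blue in the left part of each panel, libraries labelled Hmoxflfl in red in the right part, and a bar at the mean of each 2 libraries. Only Tmc5 passed the test; in Ddit4 and Cyp2b10 the LysM-Cre:Ribotag controls stand above the other libraries, and in Daam2 and Edf1 the BDL libraries labelled Hmoxflfl do.

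Turning to the genes of the heme pathway, none of its 30 measured members was called by the fit over all genes, and Hmox1 itself showed no detectable difference of responses. The Hmox1 levels given above put the difference at -0.20 ± 0.33, with a 95% interval of -0.92 to 0.52. Its sign was not stable, with 4 of 22 alternatives giving an estimate of 0.01 to 0.08. The wide interval does not show that the responses were equal. At an unadjusted p under 0.05 the heme and iron list had 0 higher and 2 lower members, against 3.03% and 6.28% of all genes. Its median was 0.21, and it was -0.02 when libraries were scaled by total counts, a scaling that moved the median of all genes from -0.02 to -0.16.

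Hamp, the hepatocyte hormone hepcidin that closes the iron exporter ferroportin, had the smallest p of the heme and iron genes. It was at 21.6 and 23.1 CPM in LysM-Cre:Ribotag controls and 116 and 76.9 CPM after BDL, and under the Hmoxflfl label at 121.8 and 85.1 CPM in controls and 154.9 and 157.3 CPM after BDL. The LysM-Cre:Ribotag controls were the low ones, below the other 6 libraries. The difference was -1.52 ± 0.38 (95% interval -2.34 to -0.69; adjusted p = 0.35 by edgeR), and DESeq2 and the fit without a filter on low counts called it. Ireb2, which encodes the iron-regulatory protein IRP2, was the other member, at -0.83 ± 0.30. For the biliverdin reductases Blvra and Blvrb, the ferritin chains Fth1 and Ftl1, ferroportin (Slc40a1) and the transferrin receptor Tfrc, every 95% interval held 0.

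Of 23 NRF2 targets and regulators none was called, and 2 were higher and 1 lower at an unadjusted p under 0.05. Responses were wholly above for 8 and wholly below for 1, against 10.6% and 13.8% of all genes. The median was 0.33, between 0.14 and 0.56 over scalings and single left-out libraries. Nfe2l2, which encodes NRF2, was at 46.2 and 53.1 CPM in LysM-Cre:Ribotag controls and 115.7 and 141.1 CPM after BDL, and under the Hmoxflfl label at 74.2 and 70.5 CPM in controls and 95 and 98.4 CPM after BDL. The LysM-Cre:Ribotag libraries were at both ends of this range, and the difference was -0.95 ± 0.31 (adjusted p = 0.42 by edgeR). Gpx1, a glutathione peroxidase, had a difference of 1.23 ± 0.46, and Taldo1, an enzyme of the pentose phosphate pathway, 0.76 ± 0.29. The NRF2 target Nqo1 had an interval of -1.43 to 1.23, too wide to place it.

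Along the LNX1, NUMB and NOTCH1 path no difference of responses was detectable either. Lnx1 was at 10.5 and 9.55 CPM in LysM-Cre:Ribotag controls and 8.13 and 18.2 CPM after BDL, and under the Hmoxflfl label at 1.62 and 1.02 CPM in controls and 2.09 and 0.665 CPM after BDL. All 4 libraries labelled Hmoxflfl lay below all 4 others, in controls and after BDL alike. The difference of responses was -0.01 ± 0.82, and its interval of -1.81 to 1.80 leaves room for a large difference either way. Its sign turned in 9 of 22 alternatives, which ran from -1.31 to 0.70.

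Numb was at 44.9 and 44.8 CPM in LysM-Cre:Ribotag controls, 34.5 and 26.6 CPM after BDL, 44.1 and 45.6 CPM in controls labelled Hmoxflfl and 33.5 and 31.0 CPM in BDL labelled Hmoxflfl. The levels under the 2 labels nearly coincided in each condition, and the difference was 0.08 ± 0.29 (95% interval -0.56 to 0.72). Notch1 was at 40.1 and 57.2 CPM, 75.2 and 68.3 CPM, 45.2 and 48.4 CPM, and 88.5 and 64.7 CPM in the same order of groups, overlapping between the labels. Its difference was 0.16 ± 0.35 (95% interval -0.60 to 0.91).

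Of 37 Notch pathway genes tested none was called, with 2 higher and 1 lower at an unadjusted p under 0.05 and a median of 0.12 that was -0.04 under scaling by total counts. Among receptors, Notch3, which is known from mural and stellate cells, had a difference of 1.14 ± 0.51. The ligand Dll4, known from endothelial cells, had 1.34 ± 0.53. Of the downstream genes, Sox9, a bile duct and progenitor regulator, was at 15.8 and 29.6 CPM in LysM-Cre:Ribotag after BDL and at 14.6 and 13.5 CPM in BDL labelled Hmoxflfl. Its controls were at 1.76 and 4.34 CPM against 6.07 and 5.23 CPM. Controls and BDL libraries of Sox9 were thus ordered oppositely between the labels, with a difference of -1.57 ± 0.56 (adjusted p = 0.46 by edgeR). For Hes1, the best known Notch target, the difference was -0.90 ± 0.52, with an interval of -2.04 to 0.24.

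**Figure D3:**
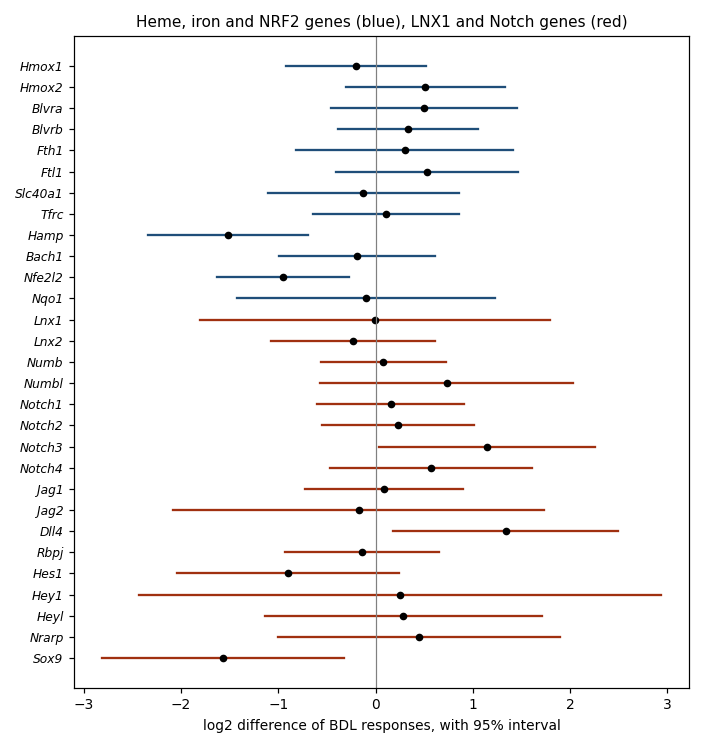
Log2 difference of BDL responses (points) with its 95% interval (lines) for heme, iron and NRF2 genes (blue) and LNX1 and Notch genes (red). The interval of Lnx1, from -1.81 to 1.80, is among the widest, Numb from -0.56 to 0.72 is among the narrowest, and Hamp, Nfe2l2, Sox9, Dll4 and Notch3 have unadjusted intervals that leave out 0 although none passed the adjusted test.

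The 2 genes of the model alleles gave wide intervals. Lyz2 had a difference of -0.62 ± 0.95 (95% interval -2.70 to 1.46), with only 7 reads in 1 of the groups. Rpl22, the ribosomal protein gene that the RiboTag allele modifies, ran from 30.1 to 110 CPM over the 8 libraries, with a difference of 0.46 ± 0.51 (95% interval -0.67 to 1.59).

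The other gene groups are described by 35 lists with 1014 tested genes in all. None of these genes was called, against 0.00707% of all genes, and 133 of them had an unadjusted p under 0.05. A list is described by its median (all genes -0.02) and by its members at an unadjusted p under 0.05 in each direction. The background for these members is 3.03% higher and 6.28% lower. For part of the lists the number with responses that do not overlap is added (background 10.6% above and 13.8% below). A list given without this number may still lie off that background. No list was tested as such.

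Most genes of inflammatory signalling had negative estimates. Of 21 inflammatory genes tested, 0 were higher and 5 lower at an unadjusted p under 0.05, 16 had a negative estimate, and the median was -0.58, between -0.83 and -0.38 without single libraries and between -0.26 and -0.10 in 3 fits of the deposited FPKM table. In those fits the median of all genes was 0.12 to 0.19. A pseudocount shrinks the changes of low genes, and the cause of the smaller FPKM medians was not tested. In the counts, 1 inflammatory gene had responses wholly above and 6 had them wholly below. Summed over the 26 listed genes, levels after BDL overlapped between the labels. They were 236.9 and 261.7 CPM in LysM-Cre:Ribotag and 231.2 and 305.7 CPM under the Hmoxflfl label. In controls the sums were 127.2 and 124.2 CPM against 128.7 and 175.8 CPM. Cxcl1, a chemokine that draws neutrophils, was at 0.785 and 1.54 CPM in LysM-Cre:Ribotag controls and 9.15 and 13.1 CPM after BDL, and under the Hmoxflfl label at 3.63 and 13.3 CPM in controls and 7.81 and 10.4 CPM after BDL. The LysM-Cre:Ribotag controls were the lowest, while the 2 Hmoxflfl controls were far apart. Its difference was -3.19 ± 0.79 (95% interval -4.95 to -1.43; adjusted p = 0.35 by edgeR). Tnfaip3, which encodes the NF-kappaB inhibitor A20, had -2.01 ± 0.61. Its 2 Hmoxflfl controls were also far apart, at 5.34 and 16.1 CPM, against 5.09 and 4.7 CPM in LysM-Cre:Ribotag controls. For the bacterial lipoprotein receptor Tlr2 the difference was -1.50 ± 0.61, and for the monocyte chemokine Ccl2 -1.78 ± 0.73. For Tnf the interval ran from -2.09 to 1.74.

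The wider list of chemokines and their receptors shares 7 genes with the inflammatory list. Of its 28 tested genes, 1 was higher and 5 lower, 1 had responses wholly above and 7 wholly below, and the median was -0.53. The higher one was Ackr2, a scavenging chemokine receptor, at 1.29 ± 0.50. Without LysM-Cre:Ribotag BDL replicate 1 the median of this list was -0.03, and in FPKM it was -0.17 to -0.10.

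Macrophage identity genes had members on both sides. Of 25 Kupffer cell genes, those of the resident macrophages of the liver, 1 was higher and 3 were lower. Vsig4, a complement receptor that marks these cells, was at 9.70 and 8.52 CPM in LysM-Cre:Ribotag controls, 22.9 and 12.4 CPM after BDL, 12.7 and 13.9 CPM in controls labelled Hmoxflfl and 7.89 and 12 CPM in BDL labelled Hmoxflfl. Its levels after BDL were higher in LysM-Cre:Ribotag than under the Hmoxflfl label, by a small margin in 1 pair, and the difference was -1.44 ± 0.44. The median of the Kupffer cell list was 0.17, with -0.11 under scaling by total counts and -0.39 without Hmoxflfl BDL replicate 2.

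Of 20 monocyte-derived cell genes, 2 were higher and 0 lower, with a median of 0.36 (0.13 to 0.60 without single libraries). Responses were wholly above for 6 and wholly below for 1. F13a1, the transglutaminase chain of clotting factor XIII that monocytes make, was at 5.47 and 5.73 CPM in LysM-Cre:Ribotag after BDL and 14.6 and 9.53 CPM in BDL labelled Hmoxflfl, against 0.128 to 0.643 CPM in all 4 controls. The difference was 1.84 ± 0.68. Chil3, a chitinase-like protein of monocytes and alternatively activated macrophages, had 1.90 ± 0.76 on 12 reads in its sparsest group. The chemokine receptor Ccr2, the defining gene of inflammatory monocytes, was negative at -0.89 ± 0.48, and its interval of -1.93 to 0.15 held 0.

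Lipid-associated and scar macrophage genes had 1 higher member of 23, Gpnmb, and the receptor Trem2 had an interval of -11.9 to 11.9 that gives no information. Of 16 dendritic cell and MHC class II genes none reached an unadjusted p under 0.05 in either direction by edgeR and none was called by DESeq2. The median of that list was 0.73, and it was 0.11 without Hmoxflfl BDL replicate 2. The summed level of its genes was 804 CPM in that library and 206.7 CPM in Hmoxflfl BDL replicate 1, so 1 library carried most of the value. Among 13 neutrophil genes 1 was lower, Ly6g, at no more than 0.598 CPM in any library.

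Interferon response genes, of which 30 were tested, had 3 higher and 0 lower members. Bst2 (tetherin, 1.01 ± 0.41) and the interferon regulator Irf7 (0.71 ± 0.32) were among them. The list's median of 0.18 was -0.01 under scaling by total counts and -0.07 without LysM-Cre:Ribotag BDL replicate 1. Among 22 genes of repair and regulation 1 was higher, the scavenger receptor Stab1 at 0.92 ± 0.38. Of 38 lysosome and phagocytosis genes 1 was higher, the scavenger receptor Msr1 at 0.86 ± 0.38, with a list median of 0.26 that was -0.03 under scaling by total counts.

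Matrix genes lay on the positive side and had no member with responses wholly below. Of 43 matrix genes tested, 6 were higher and 0 lower at an unadjusted p under 0.05, 17 had responses wholly above and 0 wholly below, and 35 had a positive estimate. The median was 0.86, and it ran from 0.46 without Hmoxflfl control replicate 1 to 1.34 without Hmoxflfl control replicate 2. Serpinh1, the chaperone HSP47 that folds collagen, was at 8.73 and 8.17 CPM in LysM-Cre:Ribotag controls and 20.7 and 14.7 CPM after BDL, and under the Hmoxflfl label at 5.94 and 6.99 CPM in controls and 30.6 and 48.3 CPM after BDL. The Hmoxflfl libraries held both the lowest controls and the highest BDL levels. Its difference was 1.51 ± 0.38 (95% interval 0.68 to 2.35; adjusted p = 0.35 by edgeR). Fbn2, a fibrillin of elastic fibers, had 2.38 ± 0.81.

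The list of collagen chains shares 15 genes with the matrix list. Of its 35 tested genes 5 were higher and 0 lower, 16 had responses wholly above and 0 below, 33 estimates were positive, and the median was 0.86. It was 0.47 without Hmoxflfl control replicate 1, 1.45 without Hmoxflfl control replicate 2, and 0.34 to 0.93 in FPKM. Col6a5, a chain of the beaded collagen VI, was at 2.01 and 2.31 CPM in LysM-Cre:Ribotag controls and 19.3 and 20.3 CPM after BDL, and at 1.11 and 1.59 CPM in controls labelled Hmoxflfl and 50.2 and 30.6 CPM after BDL. Again the Hmoxflfl libraries were the lowest in controls and the highest after BDL, and the difference was 1.70 ± 0.41 (adjusted p = 0.35 by edgeR). Col5a2, a chain of the fibril-starting collagen V, was at 18.5 and 17.4 CPM and then 67.6 and 68.6 CPM in LysM-Cre:Ribotag, against 7.95 and 20.2 CPM and then 122.6 and 135.6 CPM under the Hmoxflfl label, with a difference of 1.26 ± 0.48. For the main fibrillar chains the intervals were wide, from -0.57 to 2.03 for Col1a1 and from -0.28 to 2.21 for Col3a1.

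Markers of stellate cells and fibroblasts, the matrix-making cells of the liver, also had more positive than negative estimates, and none was called. Of 24 tested, 4 were higher and 0 lower, 21 were positive, and the median was 0.68 (0.43 to 1.06 without single libraries). Responses were wholly above for 7 and wholly below for 2. The 4 higher genes were Msln (mesothelin, 2.06 ± 0.60), Acta2 (smooth muscle actin of activated stellate cells, 1.57 ± 0.55), Cygb (cytoglobin, 1.18 ± 0.51) and Pdgfrb (the PDGF receptor beta, 0.93 ± 0.37). Over the whole list the summed level was 388.1 to 416.3 CPM in LysM-Cre:Ribotag controls, 1321 to 1469 CPM in LysM-Cre:Ribotag after BDL, 319.7 to 504 CPM in controls labelled Hmoxflfl and 2440 to 3254 CPM in BDL labelled Hmoxflfl. The share of counts other than RN45S was 0.413% and 0.451% in BDL labelled Hmoxflfl against 0.24% and 0.23% in LysM-Cre:Ribotag after BDL. The stellate cell markers Lrat, Reln, Pdgfrb and Col1a1 were above 0 in all 8 libraries. Their differences were 0.15 for Lrat, 0.47 for Reln, 0.93 for Pdgfrb and 0.73 for Col1a1. After BDL, Lrat was at 12.5 and 3.66 CPM in LysM-Cre:Ribotag, on both sides of 8.28 and 9.3 CPM under the Hmoxflfl label. The part of stellate cells and fibroblasts in the matrix values was not tested.

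Bile duct cells and endothelial cells gave smaller medians. Of 27 cholangiocyte genes, 0 were higher and 1 was lower, Sox9, and the median of 0.07 was -0.12 under scaling by total counts. Of 28 endothelial genes, 2 were higher and 0 lower, the clotting carrier Vwf at 1.24 ± 0.44 and Stab1, with a median of 0.27 (0.14 to 0.52 without single libraries).

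**Figure D4:**
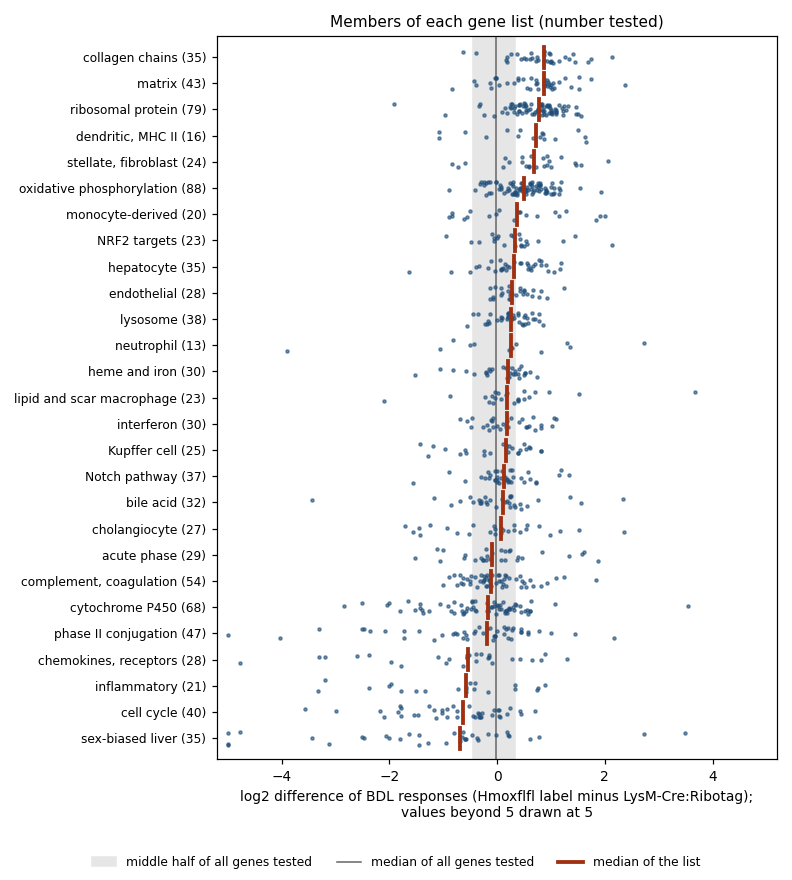
Log2 difference of BDL responses of each tested member (points) of 27 of the gene lists, with the list's median (red bar) and the median and quartiles of all genes tested (line and grey band between the quartiles); values beyond 5 are drawn at 5. Collagen and matrix genes (medians of 0.86) and ribosomal protein genes (0.79) are among the lists above the grey band, cell cycle (-0.64) and inflammatory (-0.58) genes among those below it, and points of every list lie on both sides of 0.

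Hepatocyte genes are present through the abundant hepatocyte RNA described above. Of 35 tested, 2 were higher and 0 lower, with a median of 0.31 that was 0.00 under scaling by total counts and -0.08 without Hmoxflfl BDL replicate 2. Responses were wholly above for 7 and wholly below for 0. Tat, the tyrosine aminotransferase induced by glucocorticoids, had a difference of 1.17 ± 0.44, and Gls2, the liver glutaminase, 0.77 ± 0.31. The hepatocyte share of counts other than RN45S was 8.27% and 11.7% in BDL labelled Hmoxflfl and 11.8% and 9.82% in LysM-Cre:Ribotag after BDL, overlapping between the labels.

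Drug-metabolizing genes had more negative than positive members. The cytochrome P450 list shares 12 genes with the list of sex-biased liver genes given below, and the phase II list shares 6. Of 68 cytochrome P450 genes tested 2 were higher and 10 lower, with a median of -0.16 (-0.43 to -0.03 without single libraries). Cyp2d13 was at 289.4 and 352.5 CPM in LysM-Cre:Ribotag controls, 59.7 and 69.5 CPM after BDL, 443.1 and 356.7 CPM in controls labelled Hmoxflfl and 31.3 and 24.1 CPM in BDL labelled Hmoxflfl. The Hmoxflfl libraries were again at both ends, and the difference was -1.52 ± 0.38. For Cyp2c38 it was -1.39 ± 0.43. Of 47 conjugating enzymes of phase II, 1 was higher and 8 lower, with a median of -0.18 that was -0.93 without Hmoxflfl BDL replicate 2 and 0.24 without Hmoxflfl BDL replicate 1. Ugt1a5, a glucuronosyltransferase, was at 18.3 and 45.6 CPM in LysM-Cre:Ribotag after BDL and 8.01 and 11.3 CPM in BDL labelled Hmoxflfl, with controls at 33.5 and 33.0 CPM against 56.3 and 54.1 CPM. Its difference was -2.50 ± 0.51 (95% interval -3.63 to -1.37; adjusted p = 0.34 by edgeR). Members of the Cyp2, Cyp3 and Ugt1a families share sequence, and Ugt1a genes share exons, so their single values are uncertain. Both medians were positive in FPKM (0.16 to 0.25 for P450 and 0.08 to 0.11 for phase II), where that of all genes was also positive.

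Of 32 bile acid genes, 2 were higher and 1 was lower, with a median of 0.12 that was -0.13 under scaling by total counts. The sterol exporter Abcg5 had a difference of 1.55 ± 0.55 and the bile acid uptake transporter Slc10a2 1.36 ± 0.60. The lower member was the anion uptake transporter Slco1a1, at 294.3 and 229.1 CPM in LysM-Cre:Ribotag controls and 323 and 284 CPM in controls labelled Hmoxflfl. After BDL it was at 0.76 and 1.20 CPM against 0.116 and 0 CPM, so that only 3 reads stand behind the Hmoxflfl BDL level. For Cyp7a1, the rate-limiting enzyme of bile acid synthesis, the difference was 0.25 ± 0.70 with an interval of -1.34 to 1.83.

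Of 29 acute phase genes, which the liver makes in inflammation, 1 was higher and 2 were lower. Serpina3m, a protease inhibitor of a family of near-identical copies, had a difference of 1.87 ± 0.52, Orm3, an alpha-1-acid glycoprotein, -1.12 ± 0.38, and the third was Hamp. Complement and coagulation genes, of which 54 were tested, had 3 higher and 1 lower member, with factor XI (F11) at -0.90 ± 0.33 as the lower one.

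Genes known for a sex bias in liver stand beside the 1 female library, LysM-Cre:Ribotag BDL replicate 1. Of 35 tested, 1 was higher and 5 were lower, with a median of -0.69 that was -1.13 without the female library and 0.14 in log2(FPKM + 1). Responses were wholly above for 1 and wholly below for 11. Sult2a8, a bile acid sulfotransferase higher in males, was at 254.3 and 237.4 CPM in LysM-Cre:Ribotag controls and 0.994 and 1.26 CPM after BDL, and at 394 and 278.9 CPM in controls labelled Hmoxflfl and 0.232 and 0.443 CPM after BDL. All 4 BDL libraries were low, and the difference of -2.47 ± 0.56 rests on 8 reads in BDL labelled Hmoxflfl. Cux2, a transcription factor higher in females, had a difference of 2.72 ± 1.01, with 27.9 and 9.75 CPM in BDL labelled Hmoxflfl. In LysM-Cre:Ribotag after BDL it was at 5.88 CPM in the female library and 1.15 CPM in the other. The part of sex in these values was not tested.

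Lipid and clock genes had members on both sides. Of 38 lipid metabolism genes 2 were higher and 3 lower, with a median of -0.05. Hmgcs1 and Sqle, enzymes of cholesterol synthesis, had -1.52 ± 0.41 and -1.01 ± 0.40. Hmgcs1 was at 377.9 and 283 CPM in LysM-Cre:Ribotag after BDL and at 151.8 and 206.9 CPM in BDL labelled Hmoxflfl, with controls at 116.5 and 81.7 CPM against 165.2 and 143.5 CPM. Its order between the labels was thus opposite in controls and after BDL. Of 20 circadian genes 1 was higher, the repressor Nfil3 at 1.24 ± 0.44, and 1 was lower, the nuclear receptor Rora at -0.83 ± 0.33. The time of day of sampling is not given in the sources used here.

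Cell cycle genes lay on the negative side. Of 40 tested, 0 were higher and 8 lower, 0 had responses wholly above and 7 wholly below, 31 estimates were negative, and the median was -0.64 (-0.90 to -0.31 without single libraries, and -0.29 to -0.13 in FPKM). Ccnb2, a cyclin of mitosis, was at 1.51 and 1.58 CPM in LysM-Cre:Ribotag controls, 3.62 and 4.26 CPM after BDL, 2.78 and 2.88 CPM in controls labelled Hmoxflfl and 1.97 and 2.21 CPM in BDL labelled Hmoxflfl. Here too the order between the labels was opposite in the 2 conditions, and the difference was -1.81 ± 0.46 (adjusted p = 0.35 by edgeR). The kinetochore gene Cenpf had -2.09 ± 0.74 and the G1 cyclin Ccnd1 -0.93 ± 0.34. In Cenpf the controls labelled Hmoxflfl were far apart, at 3.25 and 11.4 CPM, against 4.24 and 3.41 CPM in LysM-Cre:Ribotag controls. Mki67, which encodes the proliferation marker Ki-67, had an interval of -4.997 to 0.66.

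Ribosomal protein genes also lay on the positive side. Of 79 tested, 24 were higher and 1 was lower at an unadjusted p under 0.05, 34 had responses wholly above and 1 wholly below, and 73 estimates were positive. The median was 0.79, from 0.39 without LysM-Cre:Ribotag BDL replicate 2 to 1.21 without LysM-Cre:Ribotag BDL replicate 1. Rplp0, a protein of the ribosomal stalk, was at 54.7 and 47.0 CPM in LysM-Cre:Ribotag controls and 81.1 and 41.9 CPM after BDL, and at 35.4 and 32.9 CPM in controls labelled Hmoxflfl and 94.4 and 134 CPM after BDL. The Hmoxflfl libraries were below the others in controls and above them after BDL. Its difference was 1.46 ± 0.43 (95% interval 0.52 to 2.40), and Rps19, of the small subunit, had 1.16 ± 0.33. Summed over the 85 listed genes, levels after BDL overlapped between the labels. They were 4053 and 2452 CPM in LysM-Cre:Ribotag and 3598 and 4632 CPM under the Hmoxflfl label. In controls the sums were 2701 and 3164 CPM against 1974 and 2188 CPM. Without LysM-Cre:Ribotag BDL replicate 1, 11 of the 79 were called as higher by edgeR, where 0.206% of all genes were. With all 8 libraries edgeR called 0 of these genes and DESeq2 0, and without a filter on low counts edgeR called 2 of 82. Ribosomal protein genes have many processed copies in the genome, so reads may be split between copies.

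Oxidative phosphorylation genes, of which 88 were tested, had 11 higher and 0 lower members. Responses were wholly above for 19 and wholly below for 0, 74 estimates were positive, and the median was 0.50 (0.23 to 0.78 without single libraries). Ndufa13, of respiratory complex I, was at 55.4 and 46.0 CPM in LysM-Cre:Ribotag controls, 26.6 and 22.9 CPM after BDL, 25 and 38.5 CPM in controls labelled Hmoxflfl and 36.0 and 54.7 CPM in BDL labelled Hmoxflfl. After BDL the Hmoxflfl libraries were the higher ones and in controls the lower ones, and the difference was 1.53 ± 0.39. Uqcrc1, of complex III, had 1.19 ± 0.37 and Cox6a1, of complex IV, 1.15 ± 0.34. Summed over the 94 listed genes, levels after BDL overlapped between the labels. They were 2571 and 1831 CPM in LysM-Cre:Ribotag and 2052 and 2828 CPM under the Hmoxflfl label. In controls the sums were 3966 and 3472 CPM against 2368 and 2913 CPM. RN45S took 38.6% and 66.8% of counts in BDL labelled Hmoxflfl, 37.1% and 18.8% in LysM-Cre:Ribotag after BDL, 55.6% and 22.6% in controls labelled Hmoxflfl and 10.3% and 17.7% in LysM-Cre:Ribotag controls. With the RN45S share as a covariate the medians were 0.76 for ribosomal protein and 0.52 for oxidative phosphorylation genes.

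Stress genes of protein folding had members in both directions, 4 higher and 2 lower of 32. Dnajb9, a chaperone of the endoplasmic reticulum, was at 10.7 and 8.55 CPM in LysM-Cre:Ribotag controls and 18.2 and 20.8 CPM after BDL, and at 18.9 and 11 CPM in controls labelled Hmoxflfl and 8.97 and 8.86 CPM after BDL. Levels after BDL were separate between the labels, with a difference of -1.75 ± 0.40. The cytosolic chaperone Hsp90aa1 had 0.96 ± 0.33, and Sesn2, a stress-induced regulator of mTORC1, 1.20 ± 0.45.

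How many genes are called depended strongly on the fit and on single libraries. DESeq2 called 77 genes, 9 higher and 68 lower (0.0636% and 0.481%). Without a filter on low counts edgeR called 138, 26 higher and 112 lower. Without LysM-Cre:Ribotag BDL replicate 1, the female library, it called 195, 30 higher and 165 lower (0.206% and 1.13%), and 174 of these had an unadjusted p under 0.05 with all 8 libraries. DESeq2 and the fit without that library shared 51 genes, and 38 were called by both and by the fit without a filter. Limma-voom, the fit without robust dispersion, the stricter filter and the RN45S covariate each called 0, with 1165, 1310, 1124 and 1263 genes at an unadjusted p under 0.05. In that fit without LysM-Cre:Ribotag BDL replicate 1, this group's single remaining library is assumed to vary like the other groups.

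**Figure D5:**
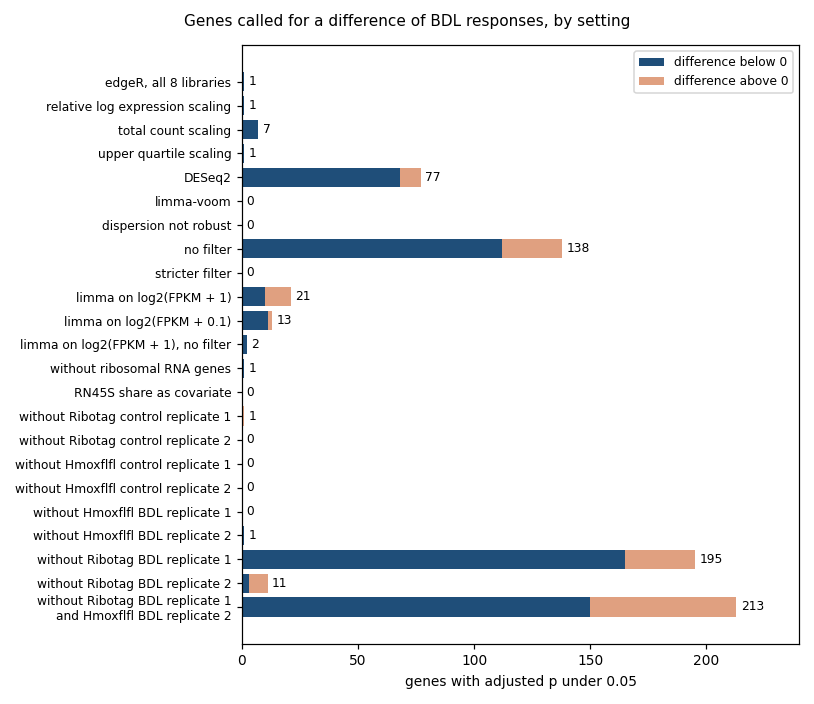
Number of genes with an adjusted p under 0.05 for a difference of BDL responses (x axis) under each fit (y axis), split by sign. The count was 1 with edgeR on all 8 libraries and between 0 and 213 in the others, with the highest counts in the fits that leave out LysM-Cre:Ribotag BDL replicate 1.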

How the data were processed

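Liver RNA of 8 mouse libraries in 4 groups of 2 was analysed. Per the labels' protocols, RNA was purified on RNeasy columns, depleted of ribosomal RNA with FastSelect, and made into libraries with a KAPA HyperPrep stranded kit; the pull-down of tagged ribosomes is described in the series' design text. Alignment with STAR 2.7.3a to mm10 and the use of Cufflinks come from the submitters' processing notes. The authors deposited STAR counts for 24982 gene symbols, used unchanged, and a Cufflinks table of FPKM by the authors for 24917 genes, used only in alternatives. The annotation release and the counting strand are not given in the sources used here. Gene positions are from GENCODE vM21 (mm10).

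Genes were kept with filterByExpr and scaled by trimmed means of M-values (factors 0.46 to 1.41; effective library sizes 4.51 to 47.2 M counts). edgeR 4.0.16 (R 4.3.3) fitted a quasi-likelihood model with robust dispersion to 4 group means, with 4 residual degrees of freedom and a biological coefficient of variation of 23.0% in common. The contrast was tested with a two-sided F test, with Benjamini-Hochberg adjustment over the 14147 genes. The SE is the absolute log2 difference divided by the square root of F, and 95% intervals are unadjusted. Library pair responses used log2 CPM with a prior count of 2. The fit was run on simulated counts with known differences, a shared dispersion and no outlying library. That run does not show how reliable the calls are in these libraries. Across genes, log2 CPM of the 2 libraries of a group had a Pearson r of 0.953 to 0.985, and in no group were the 2 libraries alike within counting error.

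Genes, lists and tests were chosen with earlier results of these data known. Always named were Hmox1, Lnx1, Notch1, Numb, Lyz2 and Rpl22. Further genes were to be up to 12 called per direction with a mean log2 CPM of at least 1, at least 10 counts in each group and responses that do not overlap, or else, as not passing, those with the smallest p up to 5, leaving out predicted genes, clones, immunoglobulin segments and sex-linked genes; and up to 4 members of each list with the smallest p. Some of these are not reported here. List members outside this rule that the text gives with an interval alone are well known genes named after their values were seen. Alternatives were DESeq2 1.42.0, limma 3.58.1 (voom, and log2 FPKM with pseudocounts 1 and 0.1), other scalings and filters, no ribosomal RNA genes, the RN45S share as a covariate, and each library left out; 1 further alternative, leaving out 2 libraries, was chosen after seeing the data.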

Additional observations from a re-analysis of the deposited data

Results flagged for a closer look

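Tmc5 stood out because the test of the difference itself passed: the BDL response differed between the labelled genotypes by -5.91 on the log2 scale. The LysM-Cre:Ribotag controls held 5 reads of this gene. No group has more than 2 libraries, so single libraries could not be checked against their own group for outlying values.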

How the results depend on the processing

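The number of genes called changed with most settings. Against 1 gene (0 higher, 1 lower), total count scaling called 7 (all lower), DESeq2 77, no filter 138 (26 higher, 112 lower), limma on log2(FPKM + 1) 21 (11 higher, 10 lower), on log2(FPKM + 0.1) 13 (2 higher, 11 lower) and on log2(FPKM + 1) with no filter 2; limma-voom, dispersion that was not robust, the stricter filter and the RN45S covariate called 0. Leaving out single libraries gave 0 to 195, with 195 without LysM-Cre:Ribotag BDL replicate 1, 11 without replicate 2 of that group, and 1 or 0 without any of the other 6. Leaving out both LysM-Cre:Ribotag BDL replicate 1 and Hmoxflfl BDL replicate 2, an alternative chosen after seeing the data, gave 213 (63 higher, 150 lower). The fit without LysM-Cre:Ribotag BDL replicate 2 keeps only the female library in that group. Ddx3y, Eif2s3y and Kdm5d, which were at 0 CPM in the female library, were among the genes it called. The cause of the changes in number was not tested. Relative log expression and upper quartile scaling and leaving out ribosomal RNA genes each called 1.

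Signs turned only where estimates were near 0 or imprecise, and none of these was called. Leaving out 1 library (or the 2 named above) moved Hmox1 between -0.39 and 0.03, Lnx1 between -1.31 and 0.70, Notch1 between -0.13 and 0.45, Numb between -0.09 and 0.36, Lyz2 between -1.26 and 0.81 and Rpl22 between -0.08 and 0.98, all across 0. Besides these, Hmox1 was 0.08 in log2(FPKM + 1) with and without the filter, and Numb was -0.04 with total count scaling. Lnx1 was 0.21 with limma-voom and 0.01 with relative log expression scaling, without ribosomal RNA genes, and in log2(FPKM + 1) with and without the filter.

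No paired analysis was possible because the labels give no replicate numbers that link libraries across groups. Depth limits what can be seen most in Hmoxflfl BDL replicate 2, with 3.25 M counts other than RN45S, and in genes with few reads in any group.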

Other observations

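Long noncoding RNAs lay on the negative side as a class. The class held 473 tested genes annotated as lincRNA, antisense, processed transcript, sense intronic, sense overlapping or bidirectional promoter RNA. Of these, 1 was higher and 105 (22.2%) were lower at an unadjusted p under 0.05, against 3.03% and 6.28% of all genes. Their median log2 difference of responses was -0.75, from -1.11 to -0.60 without single libraries and from -0.46 to -0.06 in the deposited FPKM table. Malat1, an abundant nuclear RNA, was among the lower ones at -1.71 ± 0.74, while Neat1, another nuclear RNA, had an interval of -4.24 to 1.03. Without strand information, reads of antisense genes and of their partners cannot be told apart.

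Genes named Zfp, which encode zinc finger proteins, gave a similar count. Of 350 tested, 2 were higher and 115 (32.9%) lower, with a median of -0.71 (-0.90 to -0.42 without single libraries, and -0.44 to -0.10 in FPKM). Zfp655, at -2.19 ± 0.48, was called in 4 of the alternative fits. Single values of these genes are uncertain where copies share sequence. Protein-coding genes as a whole had a median of 0.00, with 3.12% higher and 5.47% lower, and in 5 bins of transcript length their medians lay between -0.04 and 0.10. Counts differed by length: in the shortest bin 4.89% were higher and 3.68% lower, while in the other 4 bins 2.03% to 3.31% were higher and 5.45% to 6.8% lower. Both classes and the genes named here were chosen after their values were seen.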
